A study of Mus musculus with 4 samples.

Results

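The inhibitory receptor TIM-3 was followed as 5 genes: Havcr2, which encodes TIM-3 itself, Lgals9, Ceacam1 and Hmgb1, which encode its protein ligands, and Bag6, which encodes the adaptor that holds the receptor's tail. The members were chosen by gene symbol and not by a cutoff on their values, though with earlier results of these data known. All 5 of 5 had a row in the count matrices of all genes. Single-cell RNA-Seq was done on spleen cells of 4 mice, 1 library per mouse, taken on day 23 after allogeneic hematopoietic cell transplantation (allo-HCT). The cells were enriched for T cells with a kit per the labels, or sorted as donor T cells per the study's text. Each recipient was a BALB/c mouse that had been lethally irradiated, had been given 10000 WEHI-3B cells, a BALB/c-derived acute myeloid leukemia (AML) line, and had received C57BL/6 bone marrow and, on day 2, 200000 donor T cells (Tc). In 2 mice the donor genotype was Havcr2fl/fl;E8icre/+ (cre libraries 1 and 2), and in 2 it was Havcr2fl/fl (floxed libraries 1 and 2), so both groups carried the floxed allele. E8i is an enhancer of Cd8a that drives Cre in mature CD8+ Tc, so the floxed gene is meant to be lost there and kept in CD4+ Tc and dendritic cells. Donors and recipients were young adult mice per the study's methods, and the exons between the loxP sites are not given in the sources used here. UMIs were read near the 3' ends of transcripts, which may lie outside the deleted part, so a Havcr2 UMI in a CD8+ Tc does not show that the gene was intact.

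TIM-3 is a surface receptor of the immunoglobulin superfamily found on activated and exhausted Tc, on dendritic cells and on other innate immune cells. Galectin-9, the product of Lgals9, is a sugar-binding protein that leaves cells without a signal peptide, and CEACAM1 is a cell adhesion receptor with inhibitory motifs in its tail. HMGB1 is a DNA-binding nuclear protein that acts as an alarm signal once outside the cell, and phosphatidylserine on dying cells is a further TIM-3 ligand with no gene of its own. BAG6 binds the unphosphorylated TIM-3 tail and is displaced when ligand is bound, after which the kinase FYN can act there. TIM-3 and PD-1 together mark Tc that are losing function under chronic stimulation.

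The members lie on 4 chromosomes of the mouse genome build GRCm38, the assembly also called mm10. Havcr2 is on chromosome 11, from 46454935 to 46481255 on the plus strand, and Lgals9 is on the same chromosome, from 78962974 to 78984946 on the minus strand. Ceacam1 spans 25461707 to 25477603 on the minus strand of chromosome 7, inside an antisense gene, 4732471J01Rik. Hmgb1 spans 149046702 to 149184489 on the minus strand of chromosome 5 and overlaps other annotated genes, among them the lincRNA Mm2pr. Its 10 annotated processed copies had no rows in the matrices. Bag6 is on chromosome 17, from 35135178 to 35147322 on the plus strand. The promoters of the receptor and of the ligands Lgals9 and Ceacam1 are shown because these 3 genes had their highest levels in different cell classes. Lgals9 was counted in Tc as well. Each is the 250 bases before the RefSeq start (GRCm38.p6), 5' to 3' on the gene's strand. They are chr11:46454681-46454930 for Havcr2, chr11:78984925-78985174 for Lgals9 and chr7:25477626-25477875 for Ceacam1.
Havcr2: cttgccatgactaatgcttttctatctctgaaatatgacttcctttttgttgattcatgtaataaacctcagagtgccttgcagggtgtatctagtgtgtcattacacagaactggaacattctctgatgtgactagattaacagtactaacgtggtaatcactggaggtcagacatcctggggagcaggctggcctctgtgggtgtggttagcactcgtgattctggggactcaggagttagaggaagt
Lgals9: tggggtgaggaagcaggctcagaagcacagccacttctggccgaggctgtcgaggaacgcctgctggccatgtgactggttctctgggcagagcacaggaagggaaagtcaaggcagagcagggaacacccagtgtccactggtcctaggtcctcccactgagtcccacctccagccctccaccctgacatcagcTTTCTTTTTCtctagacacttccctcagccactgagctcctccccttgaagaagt
Ceacam1: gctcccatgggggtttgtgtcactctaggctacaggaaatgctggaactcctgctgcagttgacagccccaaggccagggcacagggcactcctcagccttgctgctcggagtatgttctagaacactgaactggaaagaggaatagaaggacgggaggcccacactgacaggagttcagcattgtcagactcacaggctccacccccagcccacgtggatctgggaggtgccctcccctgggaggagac
A small set of binding motifs was searched on both strands: GATAA of GATA factors, GTGTGA of T-box factors, the element of interferon regulatory factors (GAAA, any NN, then GAAA again) and TTNNGNAA of C/EBP factors. The capitals mark the 1 match, that of the interferon regulatory factor element on the other strand, 55 bases before the Lgals9 start. That motif is held by 2.98% of the 32851 mouse promoters of this length, GATAA by 22.6%, GTGTGA by 12.3% and TTNNGNAA by 36.8%. A match is a description of the letters only, as is the absence of one.

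The matrices held 15784 barcodes and 142576164 UMIs of genes, with 38386626 and 31449644 UMIs in cre libraries 1 and 2 and 17693991 and 55045903 in floxed libraries 1 and 2. Filters left 11507 cells, 1204 of them in floxed library 1 and 2546 to 4328 in the others, and pairs of libraries shared 1 to 6 kept barcodes. Although the labels call the cells T cells, 4697 of the 11507 lay outside the Tc clusters, and the donor haplotype tag H-2Kb was low, more than 3 scaled median absolute deviations below its library's median on the log scale, in 54. The Tc clusters held 4280 CD8+ Tc (at least 1 UMI of Cd8a or Cd8b1 and none of Cd4), 1766 CD4+ Tc (the reverse) and 764 Tc in neither gate. The other clusters were named from marker lists without the members and comprised 2357 early erythroid-like, 924 late erythroid-like and 347 hematopoietic stem and progenitor (HSPC)-like cells. They also held 340 monocyte- and granulocyte-macrophage progenitor (GMP)-like cells, which raised 10 of 12 monocyte and 8 of 10 GMP markers, 237 neutrophil-like, 188 basophil- or mast-like, 111 plasma-like and 77 dendritic-like cells. A cluster of 116 cells with Tc and other markers was left out of the classes, though not of gates by Cd3 UMI alone. No B cell cluster other than the plasma-like one was found. Early erythroid-like cells made up 38.1% of floxed library 2 and as few as 6.56% of another library, so floxed library 2 stood apart in its make-up. Levels are UMIs of the gene per 1000000 UMIs of the class (CPM), as mean ± SD over libraries with at least 20 cells of it, and since classes were clustered from the same cells, differences between classes are described and not tested.

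Havcr2 was found mainly in Tc and dendritic-like cells. Over all kept cells 1935 Havcr2 UMIs were counted, 785 and 225 in cre libraries 1 and 2 and 270 and 655 in floxed libraries 1 and 2, and 1093 cells (9.50%) had at least 1. In CD8+ Tc its level was 61.2 and 7.86 CPM in cre libraries 1 and 2 and 54.8 and 114 CPM in floxed libraries 1 and 2. Cre library 2 was low and floxed library 2 high, and cre library 1 lay between the floxed libraries, so the genotypes overlapped. In CD4+ Tc the levels were 55.6 and 28.9 CPM in the cre libraries and 16.8 and 48.9 CPM in the floxed ones, with both cre libraries above floxed library 1.

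Dendritic-like cells, with raised Xcr1, Cd74 and H2-Aa, had 171 CPM in cre library 2 and 88.6 CPM in floxed library 2, the 2 libraries with at least 20 of them. These levels rest on 21 and 13 Havcr2 UMIs, and the dendritic-like cells of cre library 1 and floxed library 1 held 3 and 2. The 8 Tc markers summed to 32.5 and 314 CPM in the dendritic-like cells of cre library 2 and floxed library 2, against 6597 to 8052 CPM in CD8+ and CD4+ Tc. The class means, 129.7 ± 58.1 CPM for dendritic-like cells (n = 2), 59.5 ± 43.6 for CD8+ Tc and 37.5 ± 17.9 for CD4+ Tc (n = 4 each), overlapped with their neighbors in that order. Below them, each from only a few Havcr2 UMIs per library, stood basophil- or mast-like cells at 2.25 ± 0.67 CPM, HSPC-like cells at 0.91 and monocyte- and GMP-like cells at 0.47. Early erythroid-like cells had 0.19 CPM and plasma-like cells 1 UMI in 111 cells. No Havcr2 UMI was counted in 924 late erythroid-like cells, which allows up to 0.325% of cells or 0.584 CPM, or in 237 neutrophil-like cells, which allows up to 1.27% of cells or 1.39 CPM. These limits are for cells with a UMI, not for cells that express the gene. The limit for neutrophil-like cells lies above the levels of HSPC-like, monocyte- and GMP-like and early erythroid-like cells, so the order of these classes is not resolved.

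**Figure D1:**
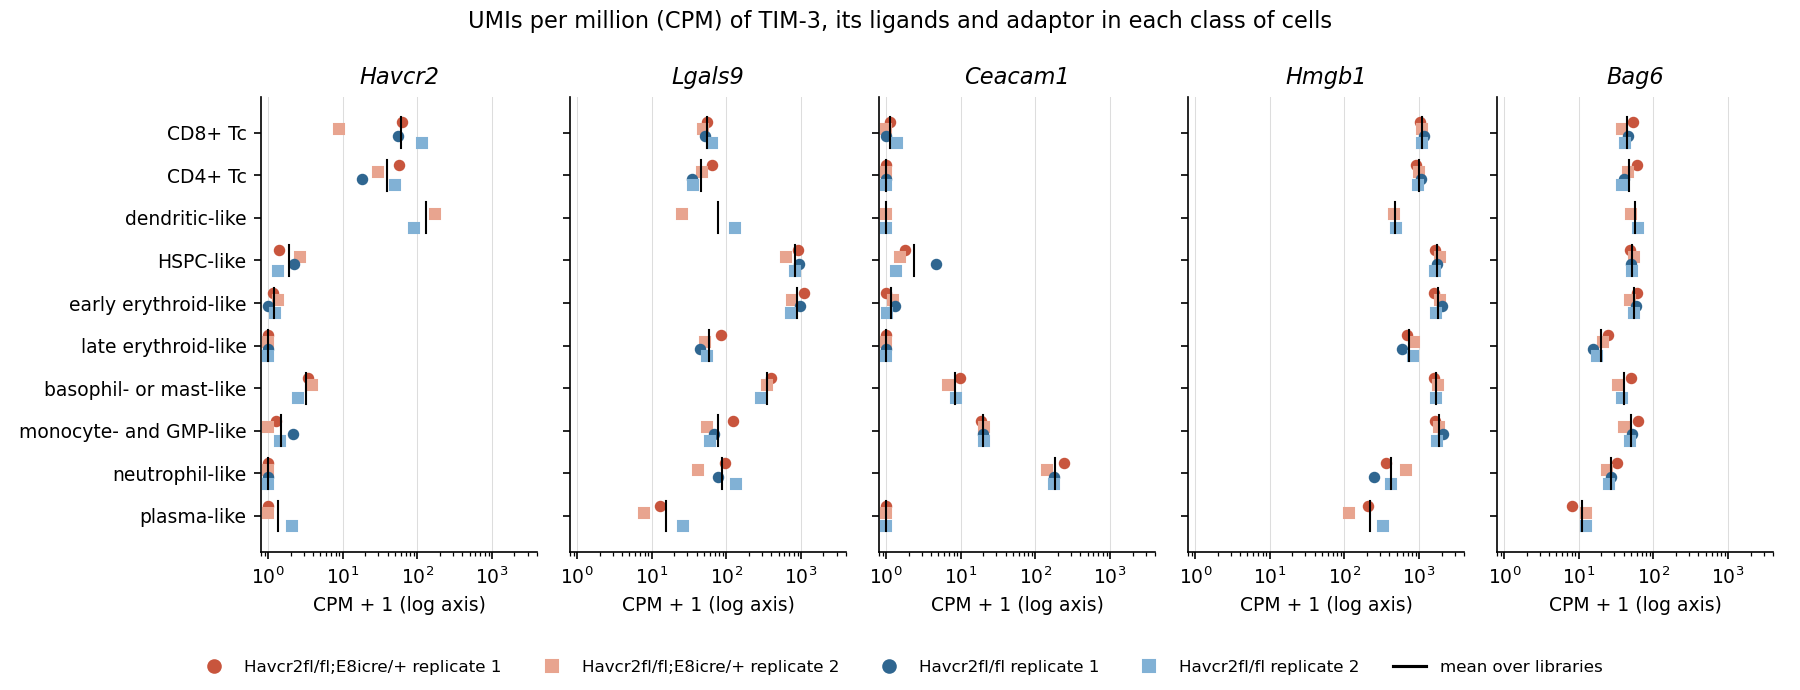
Level of each member in each cell class, as CPM + 1 on a log axis; each point is 1 library and the black line the mean over libraries. Havcr2 lies highest in dendritic-like cells and Tc, Lgals9 in early erythroid-like and HSPC-like cells (890 and 831 CPM), and Ceacam1 in neutrophil-like cells (184.5 CPM). UMIs of Lgals9, Hmgb1 and Bag6 were counted in every class.

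The share of CD8+ Tc with a Havcr2 UMI was 18.5% (95% Wilson interval 16.7 to 20.5) and 3.95% (2.89 to 5.38) in cre libraries 1 and 2, and 21.2% (17.8 to 25.0) and 26.2% (23.9 to 28.7) in floxed libraries 1 and 2. In CD4+ Tc it was 16.0% and 9.38% in the cre libraries and 7.47% and 9.27% in the floxed ones. Late erythroid-like cells, with a median of 4817.5 UMIs against 4802.5 in CD8+ Tc, served as the background for free RNA and had none. Thinned to 2000 UMIs per cell, the CD8+ shares were 9.10%, 1.37%, 8.26% and 17.7% and the CD4+ shares 10.99%, 4.67%, 4.27% and 6.18%, in the same library order. Floxed library 2 was highest in CD8+ Tc and cre library 2 lowest, while the order of cre library 1 and floxed library 1 depended on the depth.

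Within CD8+ Tc, Havcr2 was highest in a cluster led by Ccl3, Gzma, Nr4a2 and Tnfrsf9, which raised 7 of 9 TTEX (terminally exhausted) and 7 of 9 effector markers and was given no single name. Its level there was 150 and 11.6 CPM in cre libraries 1 and 2 and 127 and 231 CPM in floxed libraries 1 and 2, a mean of 129.9 ± 90.7 CPM. Cre library 2 stood below the other 3 by over a factor of 10. The Teff-like cluster raised 5 of 9 effector markers, among them Ccl5 and Gzmk, and was led by Wdr95, Rhoq and Chchd10. It followed at 34.1, 16.9, 119 and 176 CPM in that order, with both cre libraries below both floxed ones. A separation like this gives p = 0.333 in an exact two-sided permutation test of 2 libraries against 2. How many of all genes separated so was not counted. The 2 cycling clusters had means of 58.5 ± 40.6 and 50.7 ± 40.3 CPM, and unnamed clusters led by Ckb and Itga1 and by Klf2 and S1pr1 had 37.8 ± 26.2 and 33.6 ± 22.0 CPM. Short-term effector-like cells, which carried Klrg1 and Cx3cr1, had 29.8 ± 16.5 CPM.

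The TPEX-like cluster (progenitor exhausted cells, with Tcf7, Slamf6, Id3 and Xcl1) had 1.61, 0.92, 16.8 and 27.5 CPM in cre libraries 1 and 2 and floxed libraries 1 and 2, from 1, 1, 6 and 7 UMIs. Both cre libraries lay below both floxed ones, at counts too low to enter the test, and the share of all genes that separated so was not counted. In the 150 naive- or memory-like cells, which carried Lef1 and Il7r, no Havcr2 UMI was counted, which allows up to 2% of cells with a UMI or 3.53 CPM. These cells raised 7 of 7 naive or memory markers and also 7 of 8 TPEX markers, against 5 of 8 in the TPEX-like cluster. Neighbors in this order of clusters overlapped, and the last pair could not be told apart, since the TPEX-like levels of the cre libraries lie under the limit for the naive- or memory-like cells.

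**Figure D2:**
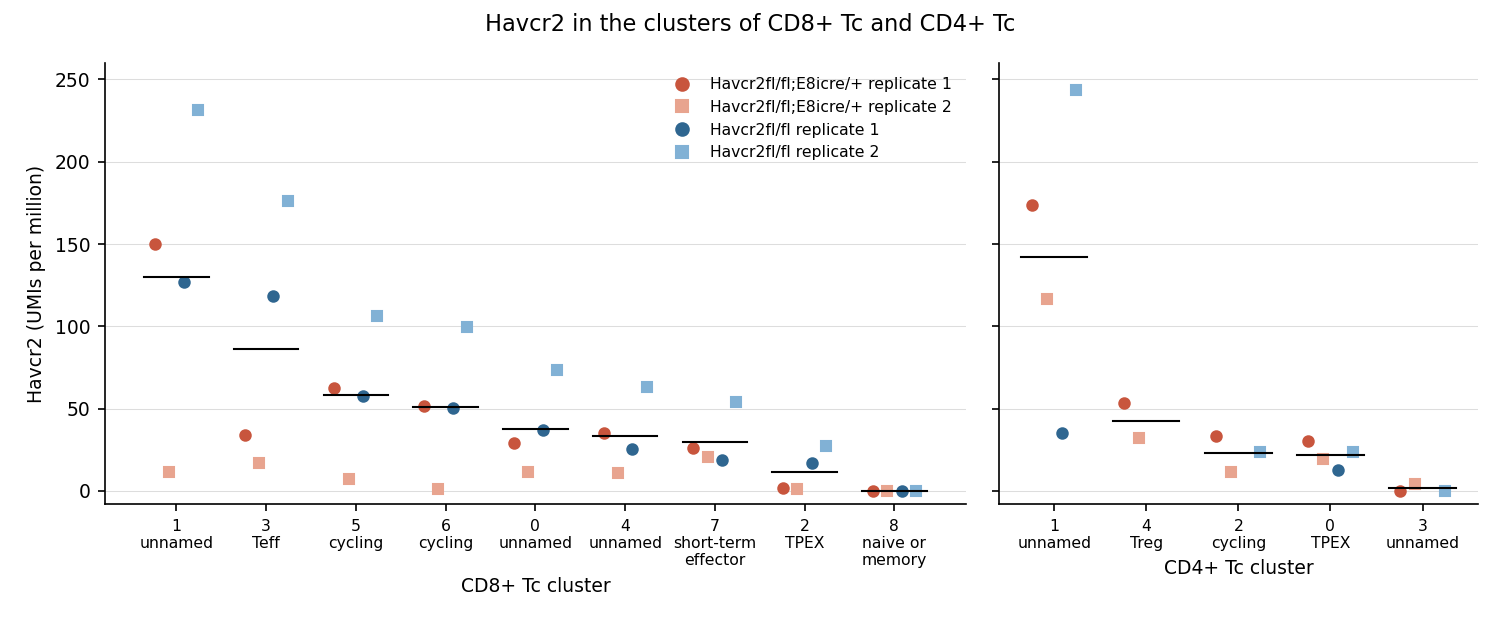
Havcr2 in CPM in each CD8+ and CD4+ Tc cluster, 1 point per library, cre and floxed libraries in separate colors, with the mean as a black line. The levels run from 129.9 CPM in the CD8+ cluster led by Ccl3 to 0 UMIs in the naive- or memory-like cluster, and cre library 2 lies below the floxed libraries in the CD8+ clusters with the highest means.

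Havcr2 levels also varied among the states of CD4+ Tc. A cluster led by Ccl4, Ccl5, Gzmk and Eomes, which raised 9 of 9 TTEX and 8 of 9 effector markers and so stayed unnamed, had 174 and 117 CPM in cre libraries 1 and 2 and 35.2 and 244 CPM in floxed libraries 1 and 2. The genotypes overlapped, with floxed library 1 lowest and floxed library 2 highest. Regulatory Tc-like cells, with Foxp3 and Il2ra, had 53.1 and 31.9 CPM in cre libraries 1 and 2, the libraries with enough of them. The cycling cluster had 22.7 CPM on average and the cluster that raised 5 of 8 TPEX markers 21.5 ± 7.2 CPM. The cluster led by Ifitm1 and Ifitm2 had 1 UMI in 116 cells.

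The comparison of the genotypes asked how far Havcr2 RNA differed where Cre is meant to be expressed. In CD8+ Tc the cre libraries were lower by a log2 fold change of −1.35 ± 0.65 (SE, 2 libraries against 2), with an adjusted p of 1.00 in edgeR's quasi-likelihood test and an unadjusted p of 0.0661. Of the 4 members tested in CD8+ Tc, 0 passed, where 0.0275% of the 10891 genes tested did, 3 by count. In this test 281 genes had an unadjusted p under 0.05, and DESeq2 gave a log2 fold change of −1.35 for Havcr2. The value rested on single libraries. In fits that leave out a library, the arm with 1 library left has no spread of its own, so only the estimates are given. The estimate was −3.41 without cre library 1, −0.55 without cre library 2, −1.77 without floxed library 1 and −0.71 without floxed library 2. With no low-count filter it was −1.31 with an adjusted p of 1.01e-06 in edgeR, from the same libraries. In that fit the spread is drawn toward that of a different set of genes. An exact two-sided permutation test of 2 libraries against 2 cannot go below p = 0.333.

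In cre library 1, 47 CD8+ Tc carried a UMI of the T cell receptor gene Trav6n-5 and held 90 of the library's 546 CD8+ Havcr2 UMIs, at 209 CPM against 53.7 CPM in the other 1492. No CD8+ Tc of another library carried one. Without these cells, a choice made after their values were seen, the log2 fold change was −1.52 (adjusted p = 1.00 in edgeR). Within single clusters, also added after the data were seen, the Havcr2 log2 fold change was −2.48 ± 0.36 in the Teff-like cluster and −1.49 ± 0.38 in the cluster led by Ckb, with adjusted p of 0.189 and 0.344 in edgeR. When libraries were clustered without integration, the leading genes of the Teff-like cluster marked a cluster of 152, 0, 1 and 8 cells in cre libraries 1 and 2 and floxed libraries 1 and 2, so this value compares cells that partly lie in a cluster of cre library 1. It was −1.07 ± 0.64 in the cluster led by Ccl3 and between −1.44 and −0.86 in the other 3 clusters where it was tested, with adjusted p of 0.982 to 1.00 in edgeR. All 6 values were negative, but they come from the same mice and are not separate results.

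In CD4+ Tc the Havcr2 log2 fold change of cre over floxed libraries was 0.35 ± 0.44 (adjusted p = 1.00 in edgeR). Of the 4 members tested in CD4+ Tc, 0 passed, where 0.0103% of 9671 genes did, and 304 genes had an unadjusted p under 0.05. The difference between the CD8+ and the CD4+ effect was −1.88 ± 0.48 on the log2 scale, with an unadjusted p of 0.00225 and an adjusted p of 0.787 in edgeR's test of the interaction, in which 0 of the 4 members tested passed and 0.0184% of 10895 genes did. Without cre library 1 the difference was −3.25 and without cre library 2 −1.24, each with 1 cre mouse left and so without a spread of that arm. In the fit of all libraries without a low-count filter it was −1.88, with an adjusted p of 2.70e-14 in edgeR, the spread again drawn toward that of a different set of genes. In myeloid-like and HSPC-like cells together the genotype effect on Havcr2 was 0.23 ± 0.79 (adjusted p = 1.00 in edgeR), and in erythroid-like cells Havcr2 was too low to be tested.

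Most of the Havcr2 RNA counted lay in Tc, in cells that had been enriched for Tc. Shares of UMIs by class, here and below, thus describe these libraries and not the spleen. CD8+ Tc held 69.6% and 24.9% of all Havcr2 UMIs in cre libraries 1 and 2 and 80.7% and 84.6% in floxed libraries 1 and 2, against 9.95% to 24.3% of all UMIs. Cre library 2 was low in this share and high in that of CD4+ Tc, which held 20.9% and 49.8% in the cre libraries and 9.26% and 7.79% in the floxed ones. Dendritic-like cells held 0.38% to 9.33%. Gated without clusters, 6838 cells with at least 3 Cd3 UMIs (97.9% of them in Tc clusters) had 51.6 and 14.3 CPM in cre libraries 1 and 2 and 36.2 and 88.5 CPM in floxed libraries 1 and 2. The 4239 cells with no Cd3 UMI (0.590% in Tc clusters) had 0.534, 2.25, 0.605 and 0.512 CPM, below the Cd3-positive cells in every library. The log2 fold change was 5.54 ± 0.75 (adjusted p = 0.000504 in edgeR with the mouse as a block). In this comparison 4 of the 5 members passed, where 74.2% of 13267 genes did.

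Lgals9, the gene of galectin-9, was highest in early erythroid-like and HSPC-like cells. In early erythroid-like cells its level was 1111 and 761 CPM in cre libraries 1 and 2 and 957.2 and 730 CPM in floxed libraries 1 and 2, a mean of 890 ± 178 CPM. HSPC-like cells had 923, 628, 943 and 831 CPM, a mean of 831 ± 144, so the 2 classes overlapped, as did the genotypes in each. The HSPC-like class raised 5 of 11 HSPC and 4 of 11 early erythroid markers, and its Car1 (1785 to 2445 CPM) overlapped with that of early erythroid-like cells (1835 to 3387 CPM). Basophil- or mast-like cells came next at 397 and 352 CPM in the cre libraries and 287 CPM in floxed library 2, apart from the classes on either side. Neutrophil-like cells had 86.1 ± 38.6 CPM, monocyte- and GMP-like cells 75.0 ± 30.3, late erythroid-like cells 57.5 ± 17.3, CD8+ Tc 53.6 ± 6.35, CD4+ Tc 44.4 ± 13.9 and plasma-like cells 14.6 ± 9.58. Dendritic-like cells were at 24.4 CPM in cre library 2, from 3 UMIs, and at 130 CPM in floxed library 2, from 19.

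Of the 61333 Lgals9 UMIs, early erythroid-like cells held 71.3% and 69.0% in cre libraries 1 and 2 and 61.4% and 87.7% in floxed libraries 1 and 2, while they held 19.5% to 68.4% of all UMIs. HSPC-like cells held a further 8.12% to 15.0%. CD8+ Tc held 1.09% to 3.95% and CD4+ Tc 0.130% to 2.00%. With cells enriched for Tc and a make-up that differed between libraries, these shares do not describe the spleen. An Lgals9 UMI was found in 84.8% to 95.5% of early erythroid-like cells per library, and in 62.2% to 81.3% after thinning to 2000 UMIs.

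**Figure D3:**
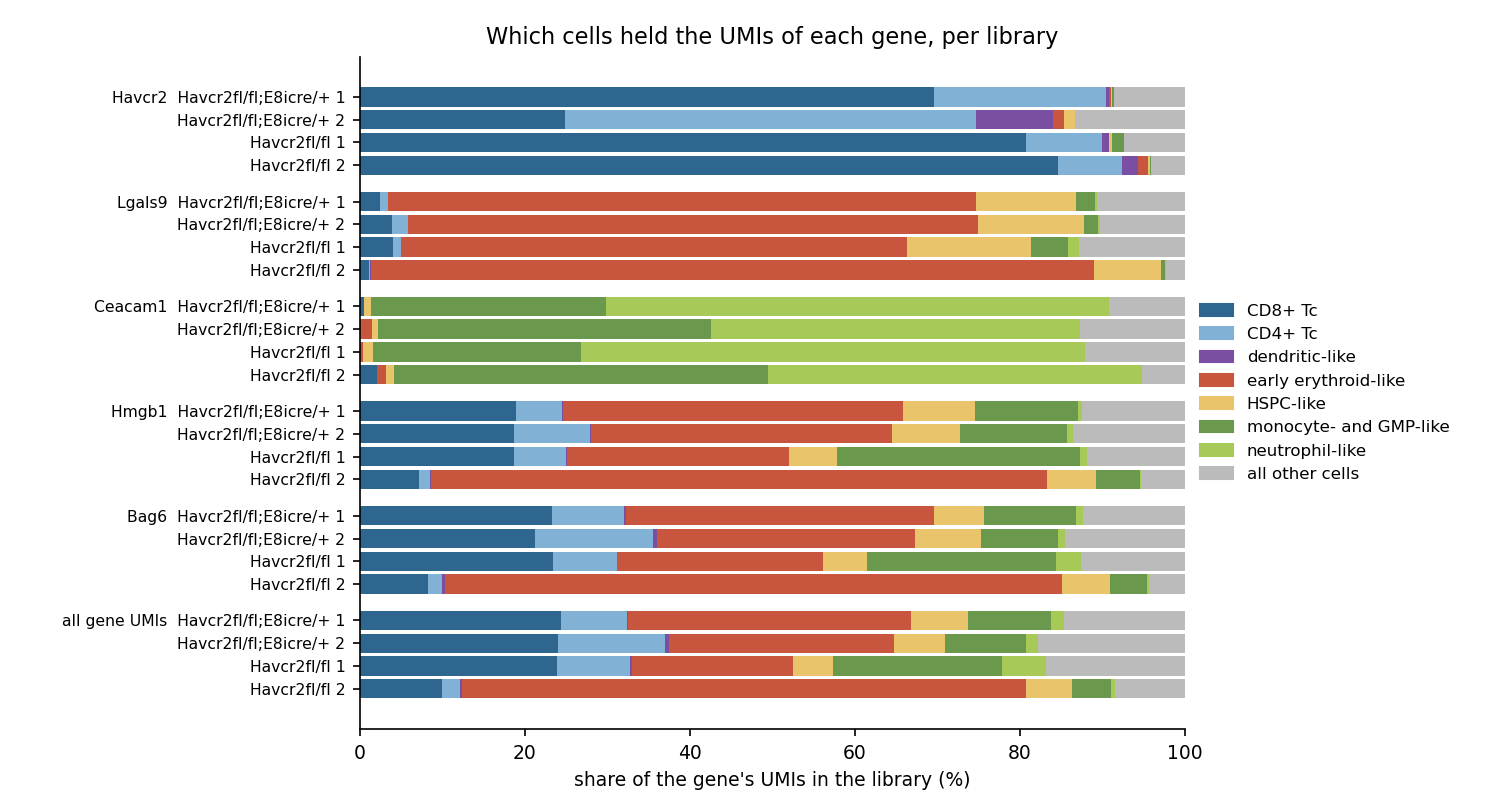
Share of each member's UMIs held by each cell class, in percent of the member's UMIs in a library, 1 stacked bar per library, with the share of all UMIs at the bottom. Averaged over the libraries, CD8+ Tc hold 64.9% of Havcr2 UMIs, early erythroid-like cells 72.4% of Lgals9 UMIs, and neutrophil-like cells 53.0% of Ceacam1 UMIs. Cells were enriched for Tc, so the shares do not describe the spleen.

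The Lgals9 counted in Tc was set against free RNA from erythroid cells, read from Car1, a carbonic anhydrase gene and marker of early erythroid cells. Early erythroid-like cells had 0.539 and 0.3605 Lgals9 UMIs per Car1 UMI in cre libraries 1 and 2, and 0.283 and 0.398 in floxed libraries 1 and 2. In CD8+ Tc the ratio was 5.65, 7.60, 5.74 and 1.03 in the same order, and in CD4+ Tc 8.13, 9.94, 5 and 0.554. The ratio was higher in Tc than in early erythroid-like cells in every library, and by the least in floxed library 2. At that ratio the Car1 in CD8+ Tc corresponds to 9.53%, 4.74% and 4.92% of their Lgals9 in cre libraries 1 and 2 and floxed library 1, and to 38.6% in floxed library 2. For CD4+ Tc of floxed library 2 it corresponds to 71.9%. Read from Mt2, a metallothionein gene that leads 2 early erythroid-like clusters, the CD8+ values were 19.1%, 11.1%, 12.6% and 64.3% in library order and that for CD4+ Tc of floxed library 2 was 81.8%. The part of free RNA in the Lgals9 of Tc thus depended on the gene it was read from and was not tested further. Among CD8+ clusters the mean Lgals9 level ran from 34.7 to 68.3 CPM and each cluster overlapped with the next. Regulatory Tc-like cells had 73.3 CPM.

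Along the erythroid clusters, ordered by the share of their UMIs from 11 late erythroid markers such as the globins, Lgals9 was high at the start and low at the end. In the 2 large early clusters, where late markers took 0.185% and 0.272% of UMIs, it was at 781 ± 128 and 1083 ± 181 CPM, and in an early cluster with 1.10% late markers at 1090 ± 206 CPM. The next 2, with 3.795% and 5.51%, had 134 CPM (floxed library 2 only) and 136 ± 79 CPM. No library of the latter reached the level of any library of the former clusters, with 55.9 to 215 CPM against 671 to 1322. Clusters with 33.6%, 49.8% and 62.7% late markers had 25.9 ± 7.25, 81.7 ± 25.0 and 71.7 ± 30.7 CPM.

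A high globin share lowers the CPM of every other gene, so levels were also taken over the UMIs of all other genes, a choice made after the first values were seen. On that scale Lgals9 stood at 782, 1087 and 1103 CPM in the 3 early clusters first named, at 139 and 143 CPM in the next 2 early clusters and at 39.1, 162 and 189 CPM in the 3 late ones. The 3 early clusters first named stayed above all others, while the order of the other 2 early clusters and the 2 latest ones turned with the scale. At the ratio of early erythroid-like cells, Car1 in late erythroid-like cells corresponds to 33.3%, 27.0%, 33.3% and 114% of their Lgals9 in library order. Read from Mt2 the values were 29.2%, 35.1%, 99.1% and 113%. The part of free RNA in the Lgals9 of the late clusters was not tested.

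**Figure D4:**
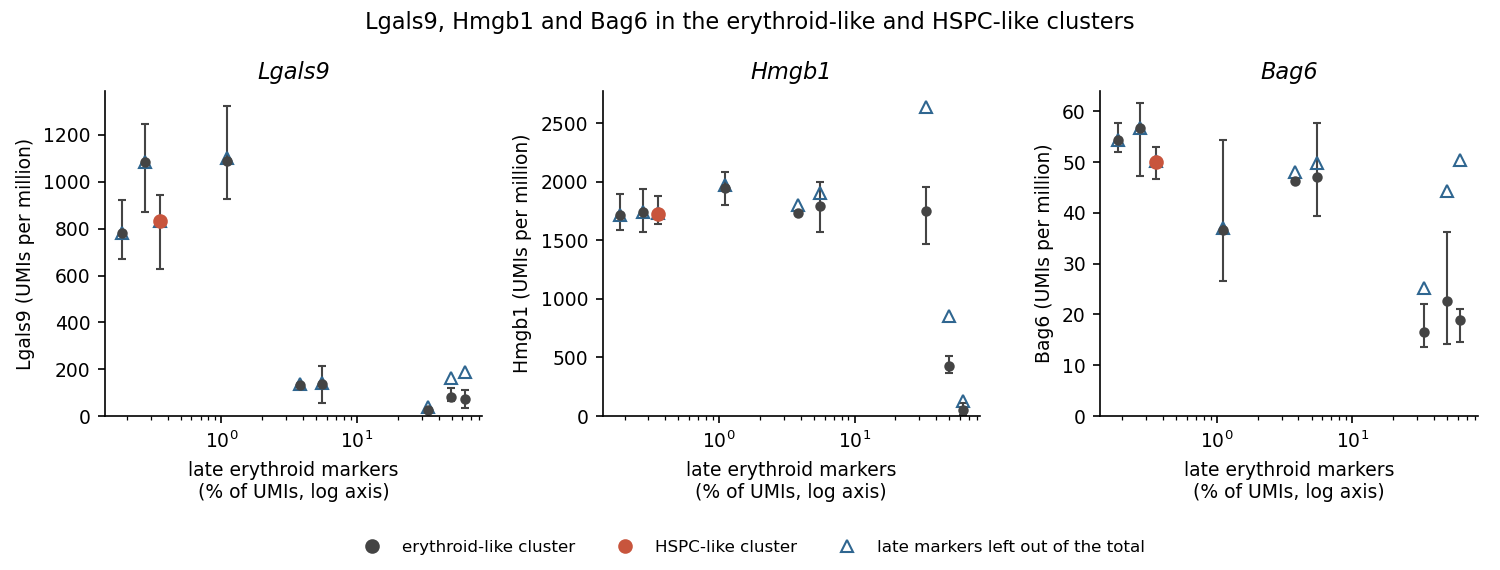
Lgals9, Hmgb1 and Bag6 in CPM in the erythroid-like and HSPC-like clusters, placed along a log x axis by the percent of UMIs from late erythroid markers. Dots are means with bars from the lowest to the highest library, red marks the HSPC-like cluster, and open triangles leave the late markers out of the total. By the dots, Lgals9 is at 781 to 1090 CPM where late markers take up to 1.10% of UMIs and at 136 CPM or less from 3.795% on. By the triangles, it reaches up to 189 CPM from 3.795% on.

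Between genotypes, Lgals9 in erythroid-like cells differed by a log2 fold change of 0.08 ± 0.25, in myeloid-like and HSPC-like cells together by 0.01 ± 0.37 and in CD8+ Tc by −0.20 ± 0.19 (adjusted p = 1.00 each in edgeR). The first 2 sums pool classes far apart in Lgals9. Late erythroid-like cells were 181, 249, 134 and 360 of 604, 453, 213 and 2011 erythroid-like cells in library order. HSPC-like cells were 107, 64, 22 and 154 of 384, 245, 164 and 396 in the other sum. Whether the estimates followed this make-up was not tested. In CD4+ Tc Lgals9 was at 63.3 and 46.2 CPM in cre libraries 1 and 2 and 33.6 and 34.5 CPM in floxed libraries 1 and 2. Both cre libraries lay above both floxed ones, with a log2 fold change of 0.63 ± 0.23 and an adjusted p of 1.00 in edgeR (unadjusted p = 0.0235). The share of all genes with such a separation was not counted. Car1 in CD4+ Tc was at 7.79, 4.65, 6.72 and 62.3 CPM in the same order, overlapping between the genotypes and highest in floxed library 2. With Tc taken by Cd3 UMI instead of by cluster, the Lgals9 estimate in CD4+ Tc turned to −0.076. The CD8+ effect on Lgals9 lay below the CD4+ effect by 0.79 on the log2 scale (estimate −0.79 ± 0.20, adjusted p = 0.787 in edgeR). In erythroid-like cells 0 of the 3 members tested passed, where 0.0285% of 10543 genes did and 420 genes had an unadjusted p under 0.05.

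Cd3-positive cells had 159 and 76.1 CPM of Lgals9 in cre libraries 1 and 2 and 116 and 105 CPM in floxed libraries 1 and 2. Cd3-free cells had 795, 484, 469 and 652 CPM, above the Cd3-positive cells in every library, a log2 fold change of −2.52 ± 0.14 for Cd3-positive over Cd3-free (adjusted p = 1.31e-05 in edgeR). The Cd3-positive gate takes in a few cells from outside the Tc clusters, and the cluster with Tc and other markers was not left out. The gate held 2378 and 1020 Lgals9 UMIs in cre libraries 1 and 2 and 851 and 749 in floxed libraries 1 and 2. In the same order CD8+ Tc held 475, 342, 201 and 303 and CD4+ Tc 187, 179, 50 and 36. The gate's Lgals9 levels were above those of the CD8+ and CD4+ Tc classes, and its fold change thus does not describe Tc alone.

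Ceacam1 was the ligand with the fewest UMIs, 723 in 2.85% of cells, and lay in the granulocytic and monocytic cells. Neutrophil-like cells, with S100a8, S100a9 and Ngp, had 240 and 142 CPM in cre libraries 1 and 2 and 178 CPM in each floxed library, a mean of 184.5 ± 40.8 CPM. The 2 cre libraries lay on either side of the floxed ones. A Ceacam1 UMI was found in 65.0% and 48.9% of neutrophil-like cells in the cre libraries and in 65.1% and 44.7% in the floxed ones, and in 18.6% to 27.8% after thinning. The 10 neutrophil markers summed to 365671 to 471417 CPM in these cells. Monocyte- and GMP-like cells had 17.7, 19.4, 19.0 and 19.2 CPM, nearly level across the libraries and below each of the neutrophil-like values. Basophil- or mast-like cells had 8.88 and 5.64 CPM in the cre libraries and 7.60 CPM in floxed library 2, and HSPC-like cells 0.37 to 3.69 CPM.

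In Tc Ceacam1 was at the floor. CD8+ Tc held 3 UMIs in 4280 cells and CD4+ Tc 0 in 1766, which allows up to 0.1699% of cells with a UMI or 0.321 CPM. It was at 0 also in 924 late erythroid-like cells (up to 0.325% of cells with a UMI), 77 dendritic-like cells (up to 3.90%) and 111 plasma-like cells (up to 2.70%). Neutrophil-like cells held 61.0% and 44.7% of all Ceacam1 UMIs in the cre libraries and 61.1% and 45.4% in the floxed ones, against 0.507% to 5.29% of all UMIs. Monocyte- and GMP-like cells held 25.3% to 45.4%. Its paralog Ceacam2 had at most 1.73 CPM in neutrophil-like cells of any library, and reads shared by both genes were not measured here. Myeloid-like and HSPC-like cells together, 384, 245, 164 and 396 cells in library order, took in 80, 47, 63 and 47 neutrophil-like cells. The genotype effect on Ceacam1 in them was −0.43 ± 0.49 (adjusted p = 1.00 in edgeR), and whether it followed this make-up was not tested. It turned to 0.55 without floxed library 1 and was −0.99 without floxed library 2, so its sign rested on single libraries. In the latter fit the floxed arm is 1 library with no spread of its own, in which 63 of the 164 cells were neutrophil-like. Of the 5 members tested there, 0 passed, where 0.00897% of 11148 genes did and 262 genes had an unadjusted p under 0.05.

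Cd3-free cells had 9.67 and 8.12 CPM of Ceacam1 in cre libraries 1 and 2 and 21.1 and 2.15 CPM in floxed libraries 1 and 2. Cd3-positive cells had 0.935, 0.895, 4.79 and 0.280 CPM, lower in every library, with a log2 fold change of −2.91 ± 0.26 (adjusted p = 8.16e-05 in edgeR). Floxed library 1 was the highest in both gates. The cluster with Tc and other markers, not left out here, held 3.95%, 8.51%, 11.3% and 0% of the Ceacam1 UMIs in library order. Over all libraries the Cd3-positive gate held 63 Ceacam1 UMIs, against 3 in CD8+ Tc and 0 in CD4+ Tc. Its level thus does not describe Tc alone.

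Hmgb1 was counted in 89.7% of all cells, 188868 UMIs in all. Monocyte- and GMP-like cells (1838 ± 208 CPM), early erythroid-like cells (1791 ± 206), HSPC-like cells (1728 ± 113) and basophil- or mast-like cells (1673 ± 92) overlapped with one another in order. CD8+ Tc had 1024 and 1095 CPM in cre libraries 1 and 2 and 1154 and 1092 CPM in floxed libraries 1 and 2, and CD4+ Tc 913, 992, 1054 and 977 CPM. In each library CD8+ Tc were above CD4+ Tc. Late erythroid-like cells had 737 ± 120 CPM, dendritic-like cells 477 (n = 2), neutrophil-like cells 424 ± 178 and plasma-like cells 217 ± 109.

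The test of CD8+ against CD4+ Tc with the mouse as a block gave a log2 fold change of 0.21 ± 0.046 for Hmgb1 (adjusted p = 0.00502 in edgeR), and without the block it was 0.21 with an adjusted p of 0.340. Hmgb1 was the 1 member of 4 tested that passed, where 24.7% of 10895 genes did. The sums take in all cell states, and the gates differed in their make-up. Cycling clusters held 375 and 353 of the 4280 CD8+ Tc and 153 of the 1766 CD4+ Tc. Whether Hmgb1 differed between the gates at a like state was not tested. In this comparison Havcr2 was at 0.31 ± 0.32 (adjusted p = 0.543 in edgeR), Lgals9 at 0.23 ± 0.13 (adjusted p = 0.253) and Bag6 at −0.05 ± 0.10. The Havcr2 value averages over both genotypes, although Cre is meant to act in CD8+ Tc only. Havcr2 was higher in CD8+ than in CD4+ Tc in both floxed libraries and in cre library 1, and lower in cre library 2. Havcr2 passed without cre library 2, at 0.82 (adjusted p = 0.0131 in edgeR), and Lgals9 without cre library 1, at 0.44 (adjusted p = 0.0435 in edgeR).

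Within Tc, Hmgb1 was highest in a cycling cluster of each gate. The cycling CD8+ cluster led by histone genes and Cenpf had 1959 and 2419 CPM in cre libraries 1 and 2 and 2670 and 1983 CPM in floxed libraries 1 and 2, a mean of 2258 CPM. The other cycling CD8+ cluster, led by S-phase genes such as Mcm3, had 1194 CPM and the cluster led by Klf2 1193. Ccnb2 was also among the leading genes of the Klf2 cluster. At the higher clustering resolution it led a cycling cluster of 179 cells, and the overlap of these clusters was not tested. The remaining CD8+ clusters, those with erythroid RNA aside, had 629 to 793 CPM. In CD4+ Tc the cycling cluster had 1760 CPM and the others 679 to 774. Across the 27 clusters compared, Hmgb1 correlated with the cycling genes Top2a and Mki67 at r = 0.74 and 0.38, as a description over clusters that share libraries. Of the erythroid clusters Hmgb1 was low in the 2 latest, at 430 and 50.6 CPM against 1714 to 1948 in the others, and still at 855 and 131 CPM when late markers were left out of the total.

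Cd3-free cells had 1504 and 1667 CPM of Hmgb1 in cre libraries 1 and 2 and 1680 and 1589 in floxed libraries 1 and 2, against 1047, 1082, 1229 and 1117 in Cd3-positive cells. The log2 fold change for Cd3-positive cells was −0.64 ± 0.08 (adjusted p = 0.000334 in edgeR), lower in 4 of 4 libraries. The cluster with Tc and other markers was not left out here either, so this value does not describe Tc alone. The genotype effect on Hmgb1 was between −0.16 and −0.10 in the 4 cell groups tested, with SEs of 0.22 to 0.27 (adjusted p = 1.00 each in edgeR).

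Bag6, the adaptor, was counted in all classes, with 6368 UMIs in 32.2% of cells. Early erythroid-like cells had 59.2 and 47.4 CPM in cre libraries 1 and 2 and 57.3 and 54.0 CPM in floxed libraries 1 and 2. CD8+ Tc had 51.8, 36.6, 44.0 and 41.1 CPM, and CD4+ Tc 59.6, 45.2, 39.0 and 37.4 CPM. HSPC-like cells (50.0 CPM), monocyte- and GMP-like cells (49.4) and basophil- or mast-like cells (39.0) lay in the same range, and dendritic-like cells had 55.1 CPM in 2 libraries. Neutrophil-like (26.0 ± 3.7 CPM), late erythroid-like (18.7 ± 4.2) and plasma-like cells (10.0 ± 2.6) were lower. Among Tc clusters the means ran from 37.1 to 59.4 CPM and neighbors overlapped. With late markers left out of the total, the late erythroid clusters had 25.2, 44.2 and 50.4 CPM, so only the first of the 3 stayed below the 37.1 to 56.8 CPM of the other erythroid-like clusters on that scale.

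The adaptor was thus counted both in the classes that held Havcr2 and in those that did not. Cd3-positive cells had 54.1 and 41.3 CPM in cre libraries 1 and 2 and 43.5 and 40.2 CPM in floxed libraries 1 and 2, and Cd3-free cells 54.7, 40.4, 46.01 and 51.0 CPM, with a log2 fold change of −0.21 ± 0.10 (adjusted p = 0.106 in edgeR). Here too the Cd3-positive gate does not describe Tc alone. The genotype effect on Bag6 was 0.02 ± 0.20 in CD8+ Tc, −0.13 ± 0.15 in erythroid-like cells and −0.09 ± 0.17 in myeloid-like and HSPC-like cells. In CD4+ Tc it was 0.40 ± 0.23, with both cre libraries above both floxed ones and an adjusted p of 1.00 in edgeR. Such a separation gives p = 0.333 in an exact two-sided permutation test, and its share among all genes was not counted.

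**Figure D5:**
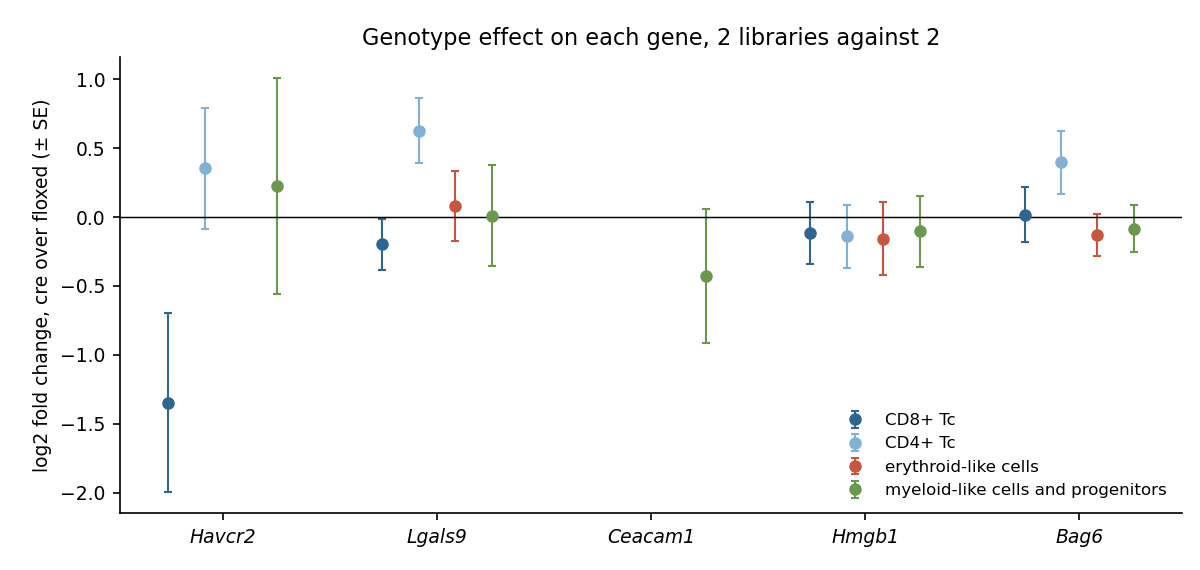
Log2 fold change of cre over floxed libraries with its standard error for each member tested in CD8+ Tc, CD4+ Tc, erythroid-like cells and myeloid-like with HSPC-like cells (edgeR, 2 libraries against 2). Havcr2 is lowest in CD8+ Tc, at −1.35 ± 0.65, and none of the values passed an adjusted p of 0.05.

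A list of 36 genes around the pathway was also read, covering phosphatidylserine exposure, other TIM receptors, kinases, factors that regulate Havcr2, sheddases, partners of galectin-9, receptors of HMGB1, phosphatases of CEACAM1 and paralogs (the galectin-9 receptor Clec7a was not analysed here). Of 27 tested in CD8+ Tc, 25 in CD4+ Tc, 18 in erythroid-like cells and 24 in myeloid-like and HSPC-like cells, 0 passed the edgeR test between genotypes, and 0 of 27 passed the interaction. Between Cd3-positive and Cd3-free cells, 19 of 29 were higher and 6 lower in the Cd3-positive cells, with a median log2 fold change of 1.20 against 0.01 over all genes. These 25 of 29 stand beside the 74.2% of all genes that passed. All 5 kinases and partners were higher, among them Lck, which phosphorylates T cell receptor chains, by 7.10. All 5 regulators of Havcr2 were higher, among them the T-box factor Tbx21 by 7.73. Of the 3 genes of phosphatidylserine exposure, the synthase Ptdss1 (0.76) and the scramblase Xkr8 (1.29) were higher and the synthase Ptdss2 (−2.48) lower. Ptdss2 was at 217 CPM in late erythroid-like and 99.4 CPM in early erythroid-like cells, and at 9.0 and 11.2 CPM in CD8+ and CD4+ Tc.

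Of the galectin-9 partners, the checkpoint receptor Pdcd1 and the costimulatory receptor Tnfrsf9 were higher in Cd3-positive cells by 9.06 and 8.80, the disulfide isomerase P4hb was lower at −0.91, and the adhesion receptor Cd44, at 0.13, did not pass (adjusted p = 0.309 in edgeR). The HMGB1 receptor Tlr4 was lower by a log2 value of −1.73, and Tlr2 and Tlr4 were highest in neutrophil-like cells, at 34.5 and 27.4 CPM. Of the paralogs, the galectin genes Lgals1 (2.49), Lgals4 (2.03) and Lgals8 (1.04) were higher and Hmgb2 (−0.51) and Hmgb3 (−2.35) lower. The other TIM receptors Havcr1, Timd2 and Timd4 had 0 CPM in CD8+ and CD4+ Tc. Between CD8+ and CD4+ Tc, 7 of 27 list genes were higher in CD8+ Tc and 5 lower in edgeR's test, where 24.7% of all genes passed. In edgeR, Pdcd1 was higher by 0.57 (adjusted p = 2.23e-05), Tnfrsf9 by 1.09 (adjusted p = 0.000386) and the kinase Fyn by 0.36 (adjusted p = 0.000860). Maf, a factor of helper and regulatory Tc, was lower by a log2 value of −3.04 (adjusted p = 2.33e-09 in edgeR).

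For each member the 5 genes most like it in pattern were found among 11272 genes over the 27 clusters, by Pearson's r of the mean log2(CPM + 1), as a description over clusters of the same 4 libraries. The nearest to Havcr2 were Phf11a (r = 0.94), Frmd4b (0.92), Gm26520 (0.91), Trerf1 (0.89) and Ildr1 (0.89). Lgals9 was nearest to Car3 (0.93), Shank3, Gja1, Ephx2 and Gdf3 (0.91 each). Ceacam1 was nearest to Cebpe, Plaur, Bmx and Aatk (0.99 each) and Stard8 (0.98). Hmgb1 was nearest to Nudt21 and Srsf4 (0.97 each), Hnrnpd (0.97), Lsm3 and Nucks1 (0.96 each), and Bag6, at lower values, to Manbal, Cox6c, Atp5md, Crcp and Tomm7 (0.87 to 0.88).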

How the data were processed

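The authors deposited raw UMI counts per gene and cell, made with Cell Ranger 6.1.2 against mm10 per the labels (10x 3' chemistry), with a count of the H-2Kb antibody tag. Cells were kept at 500 genes, 1000 UMIs and at most 10% mitochondrial UMIs, and 125 doublets called by Scrublet were removed (an alternative removed the expected 0.8% per 1000 barcodes). Clustering used Seurat 5.3.0 and R 4.3.3 with the members left out of the variable genes and marker lists. A class in a library needed 20 cells, and shares have 95% Wilson intervals and zeros the limit of 3 counts, for counting error only. Counts summed per library were tested with edgeR 4.0.16 (quasi-likelihood, TMM, filterByExpr, Benjamini-Hochberg over all genes tested, threshold 0.05, two-sided), with DESeq2 1.42.0 as an alternative. With 2 libraries a group, p-values rest on the spread between these mice. In edgeR the spread of each gene is drawn toward that of all genes tested, which the low-count filter changes. On simulated data for the CD8+ comparison, 64% of genes changed by 1 and 98% of those changed by 2 on the log2 scale were recovered. Every simulated gene was given the same dispersion, so these shares need not hold for a gene with a wider spread between mice, such as Havcr2.

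Genes named are the members, the pathway list (passing genes, counts and examples), the 5 genes most like each member, with at least 10 CPM in 1 class, and markers. The members and lists were chosen with earlier results of these data known. The alternatives comprised other normalization, filters, thinning to 2000 UMIs, doublets, clustering, a replicate block and leaving out each library. The labels describe kit enrichment of Tc and the study's text a sort of donor Tc, and either would remove cells other than Tc.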

Additional observations from a re-analysis of the deposited data

Results flagged for a closer look

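Tc outside both gates, which carried both Cd4 and Cd8 UMIs or neither, entered no comparison between genotypes or between CD8+ and CD4+ Tc and still held Havcr2. In these 764 cells its level was 37.4 and 19.7 CPM in cre libraries 1 and 2 and 32.4 and 24.6 CPM in floxed libraries 1 and 2, a mean of 28.5 CPM, and the genotypes overlapped. Late erythroid-like and neutrophil-like cells had no Havcr2 UMI.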

How the results depend on the processing

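Of 337 fold changes of the members recomputed under an alternative, 306 kept their direction and their side of the threshold, 1 lost and 12 gained significance, and 18 turned in sign. Of 124 levels, 113 moved by less than the SD between libraries. Some of these leave out 1 library, which cannot move a mean by as much as that SD, so they could not fail. With 2 libraries a group a single mouse could decide a value, a gene with few UMIs could not be tested, and which of the mice or settings caused a move was not tested.

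Without the low-count filter the Havcr2 estimates were −1.31 in CD8+ Tc, 0.35 for CD8+ against CD4+ Tc and −1.88 for the interaction, each then past the threshold. With Tc taken by Cd3 UMI, the Lgals9 genotype effect turned to 0.27 in the CD8+ and to −0.076 in the CD4+ gate. Thinned to 2000 UMIs, Ceacam1 in neutrophil-like cells was at 142 CPM and Hmgb1 in CD8+ Tc at 940 CPM.

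Leaving out 1 library at a time, the genotype effect in CD8+ Tc ran from −3.41 to −0.55 for Havcr2 and from −0.20 to 0.20 for Bag6, and in CD4+ Tc from −0.30 to 1.26 for Havcr2. In erythroid-like cells it ran from −0.16 to 0.26 for Lgals9 and from −0.40 to 0.034 for Hmgb1. In myeloid-like and HSPC-like cells it ran from −1.21 to 1.02 for Havcr2, −0.40 to 0.61 for Lgals9, −0.99 to 0.55 for Ceacam1, −0.27 to 0.062 for Hmgb1 and −0.18 to 0.011 for Bag6. For CD8+ against CD4+ Tc the range was 0.029 to 0.82 for Havcr2 and −0.11 to 0.036 for Bag6, and for the interaction −3.25 to −1.24 for Havcr2.

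The replicate numbers do not pair the mice by any label, and same-numbered libraries did not deviate together (r = −0.135 in CD8+ and −0.060 in CD4+ Tc). With the replicate block, Havcr2 in CD8+ Tc was at −1.73 with 0 genes called instead of 3, and 0 were called instead of 1 in CD4+ Tc, 0 instead of 3 in erythroid-like cells and 2 instead of 1 in myeloid-like and HSPC-like cells. The crossed pairing, added after the data were seen, called 63, 38, 4 and 5 genes, with Havcr2 at −1.73. Without the mouse block (and so no replicate block), Hmgb1 in CD8+ against CD4+ Tc stayed at 0.21 but was not called, and 1015 genes were called instead of 2686.

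The number of genes called also moved with the filter and the tool. With no filter it was 90 in CD8+ Tc, 51 in CD4+ Tc, 109 in erythroid-like cells, 137 in myeloid-like and HSPC-like cells and 58 instead of 2 for the interaction. DESeq2 called 6 in CD4+ Tc, 11 in erythroid-like and 16 in myeloid-like and HSPC-like cells, 1 for the interaction and 1518 for CD8+ against CD4+ Tc. With 1 library left out the count ran from 1 to 20 in CD8+ Tc, 4 to 29 in CD4+ Tc, 2 to 304 in myeloid-like and HSPC-like cells, 5 to 47 for the interaction and 1770 to 2232 for CD8+ against CD4+ Tc, and it was 0 throughout in erythroid-like cells. A stricter cell filter and the expected doublet rate each gave 0 in CD4+ Tc and 4 for the interaction. A lower resolution left CD4+ Tc in 1 cluster and gave no values by state.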

Other observations

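Receptor and ligand RNA were counted in the same Tc. Among CD8+ Tc with a Havcr2 UMI, 28.1% and 31.6% also had an Lgals9 UMI in cre libraries 1 and 2 and 35.0% and 23.3% in floxed libraries 1 and 2. Among CD8+ Tc without one, the shares were 24.8%, 26.4%, 29.8% and 19.6%. The shares at full depth were higher in the cells with Havcr2 in each of the 4 libraries, and depth was not matched between them. In CD4+ Tc they were 26.9%, 23.7%, 16.7% and 17.2% with Havcr2 and 23.3%, 20.7%, 17.0% and 9.86% without, higher in 3 of 4 libraries. At the ratio of early erythroid-like cells, Car1 corresponded to 38.6% of the Lgals9 in CD8+ Tc of floxed library 2. In CD4+ Tc of that library it corresponded to 71.9%, and both values were lower in the other libraries. The part of free RNA in these shares was not tested.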
